A study of Homo sapiens with 14 samples.

Results

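The ZDHHC genes encode the protein palmitoyltransferases, membrane enzymes that attach fatty acyl chains to cysteines of other proteins through a cysteine-rich domain with the motif they are named after. The attached chain holds a protein at a membrane or moves it between membranes, and thioesterases take it off again. SF3B1 is a subunit of the U2 small nuclear ribonucleoprotein, which recognizes the branch site ahead of a 3′ splice site, and hotspot mutations of SF3B1 are known for the use of cryptic 3′ splice sites. Splicing of 10 ZDHHC genes, ZDHHC3, ZDHHC4, ZDHHC5, ZDHHC6, ZDHHC7, ZDHHC8, ZDHHC13, ZDHHC16, ZDHHC17 and ZDHHC20, is described here.

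RNA-Seq had been performed in HEK293T, a human embryonic kidney line, with 3 libraries of SF3B1-WT cells (K700K) and 3 of SF3B1-MT cells (K700E), isogenic lines with no further treatment in the labels. The supplement on how the lines were made was not used here, so whether each is 1 clone is not known here. Nor do the labels say whether libraries came from separate cultures, so the spread between libraries may be technical. The deposited table gives, for each splice event, an inclusion level per library, which is the share of the longer or exon-including form between 0 and 1, made from reads across splice junctions. It lists 6 MT values per event, and the 3 that have a column of their own were used as MT 1, MT 2 and MT 3. The table does not say which listed values belong to the 3 MT libraries of the labels. Each of these MT columns is counted as 1 library below, which is an assumption. The point mutation cannot be checked in a table of junctions. Of 9 marker genes of HEK293T, 3 had an event with at least 10 reads (KRT8, KRT18 and CDH2), against 1 of 15 markers of the erythroleukemia line K562 (ANK1) and 0 of 12 of the B cell line Nalm-6, the other lines of the study. Only 5, 1 and 4 of these markers had any listed event. The rest could not be counted whatever their expression, so these counts do not settle the identity of the line.

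Events of the 10 genes entered when the mean of the authors' WT and MT junction reads was at least 10. This kept 85 of 90 events, of 94061 in 10404 genes over the whole table. The nearest event inside the minimum was a ZDHHC20 3′ splice site event with 12.6 reads, and the nearest outside was a ZDHHC20 exon with 4.7. The genes themselves were chosen by their inclusion levels in the same WT and MT libraries, so the levels below are a description and carry no test of their own. All 85 had a level in each library, and 7 had the same level in every library, which left 78 in the fit across all events.

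The largest difference of the 85 events lay in ZDHHC16, an enzyme of the endoplasmic reticulum that palmitoylates ZDHHC6. Exon 10 of 12 in its representative transcript can begin at 3 alternative 3′ splice sites on chromosome 10. The first site, with position 97455639 as first base of the exon, lies 21 bp upstream of the second at 97455660, and the third is 54 bp further downstream, at 97455714. In the GENCODE annotation, 1 of 18 transcripts of ZDHHC16 uses the first site, and its transcript type is not protein-coding. The second site, which is that of the representative transcript, is used by 9 and the third by 3. The genomic sequence through all 3 sites is shown because the largest difference lies between them, followed by the paired 3′ sites of ZDHHC17, ZDHHC6 and ZDHHC20 for comparison. Each runs 5′ to 3′ on the strand of the gene in GRCh38, from 50 bases before the first site to 20 bases after the last, and capitals mark the AG that ends the intron at each site. ZDHHC16 lies at chr10:97455589-97455733 on the plus strand, ZDHHC17 at chr12:76815807-76815917 on the plus strand, ZDHHC6 at chr10:112443575-112443656 on the minus strand and ZDHHC20 at chr13:21381527-21381599 on the minus strand.
ZDHHC16: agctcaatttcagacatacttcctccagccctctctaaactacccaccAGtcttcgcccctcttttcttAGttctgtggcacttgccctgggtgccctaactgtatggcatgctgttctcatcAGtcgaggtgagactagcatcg
ZDHHC17: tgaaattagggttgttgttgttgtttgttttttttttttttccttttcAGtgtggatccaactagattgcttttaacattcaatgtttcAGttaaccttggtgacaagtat
ZDHHC6: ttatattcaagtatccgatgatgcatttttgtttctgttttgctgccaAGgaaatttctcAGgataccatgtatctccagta
ZDHHC20: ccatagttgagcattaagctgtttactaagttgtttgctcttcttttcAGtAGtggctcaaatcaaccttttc

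For the first against the second ZDHHC16 site, inclusion of the 21-bp segment from 97455639 to 97455659 was 0.07, 0.045 and 0.153 in the WT libraries and 0.446, 0.368 and 0.319 in MT 1, MT 2 and MT 3. Every MT value lay above every WT value, and the gap between the groups was wider than the range within either. From a WT mean of 0.089 ± 0.057 to an MT mean of 0.378 ± 0.064 (SD, n = 3 each), the difference was 0.288. The authors' mean reads of the longer form were 8.0 in WT and 38.5 in MT, and those of the shorter form 75.0 and 51.2, the MT means being over all 6 listed values. Over those 6 values the authors' mean level in MT was 0.381. In bulk RNA, more cells with the longer form and more of it in each cell cannot be told apart.

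In a limma fit across 83581 events, with an adjusted p under 0.05 (Benjamini-Hochberg) and a difference above 0.1 required, this event was past the threshold, 1 of 78 ZDHHC events or 1.28%. Over all events tested the share was 0.0311%, 26 events. Since the genes were chosen by the same levels, neither the call nor the share is an independent test of the ZDHHC genes. The call was lost when any 1 of the 6 libraries was left out, with a logit transform, with no variance trend and with no read minimum, while the difference stayed between 0.254 and 0.32 with each library left out. A rise at least as large was found in 20 of 5351 alternative 3′ splice site events, the ZDHHC16 event included.

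The last of these sites, the third, had fewer reads in MT. Against the first site, the level of the longer form was 0.887, 0.747 and 0.692 in WT, against 0.891, 0.97 and 0.913 in MT, a difference of 0.149 between means of 0.775 ± 0.101 and 0.925 ± 0.041 (SD, n = 3 each). The groups did not overlap, but WT 1 and MT 1 were 0.887 and 0.891. Against the second site, the longer form had levels of 0.938, 0.86 and 0.789 in WT, against 0.904, 0.977 and 0.934 in MT, with overlap between the groups and a difference of 0.076. Neither was past the threshold. The authors' mean reads that joined the third site were 16 in WT and 7.0 in MT, the same reads in both pairs. These pairs are not separate measurements. The longer form of the first pair with the third site had 99.7 mean reads in WT although the first site had 8.0 against the second, because reads that cross the start of the third site are counted for the longer form and come from transcripts of either upstream site.

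**Figure D1:**
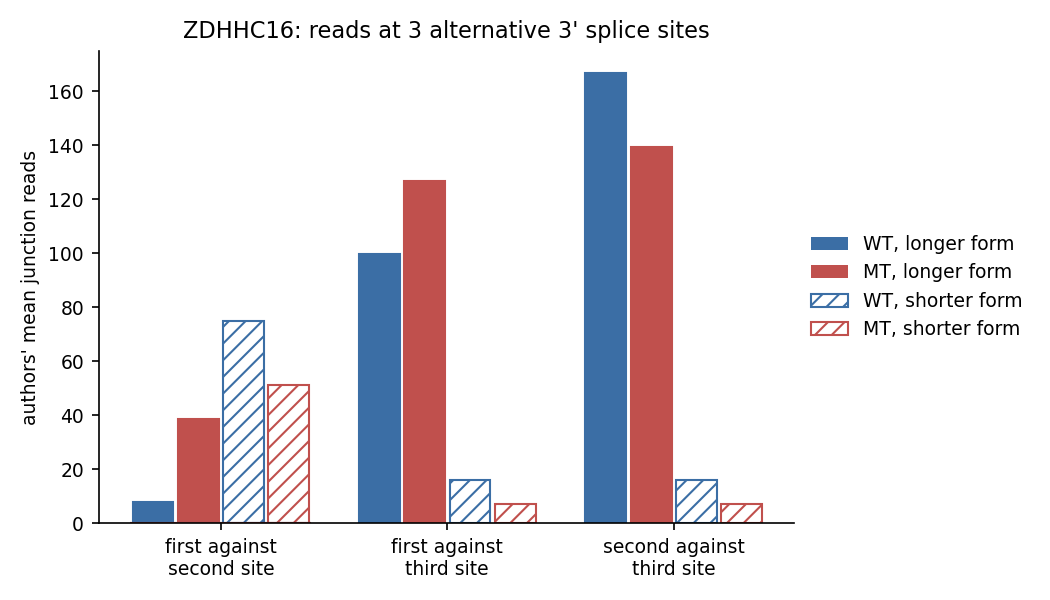
Authors' mean junction reads (vertical axis, reads) of the longer form (filled bars) and the shorter form (hatched bars) for each pair of the 3 ZDHHC16 sites (horizontal axis), WT in blue and MT in red, without error bars because the table gives group means over 3 WT and 6 listed MT values. The longer form of the first pair has 8.0 reads in WT against 38.5 in MT, and the third site 16 against 7.0.

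The exon as a whole was kept in both genotypes. Counted from each site in turn, its mean inclusion was 0.973, 0.986 and 0.971 in WT, against 0.983, 0.987 and 0.976 in MT, with differences of 0.01, 0.001 and 0.005. The segments of 21 and 54 bp are both multiples of 3 in length. An annotated coding sequence overlaps the 21-bp segment, but the reading frame of the form from the first site was not tested. All 3 sites follow an AG, as did 99.1% of the 10702 sites of the alternative 3′ splice site events tested. Of the 20 bases before the AG, 75% were C or T at the first site, 90% at the second and 65% at the third, where the median over all such events was 70% for the upstream and 70% for the downstream site.

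The remaining ZDHHC16 events differed by less than 0.1. Exon 8, of 48 bp, had levels of 0.316, 0.483 and 0.433 in WT, against 0.383, 0.365 and 0.337 in MT. Exon 2, outside the coding part, was included at 0.184, 0.157 and 0.167 in WT, against 0.358, 0.191 and 0.116 in MT, so the groups overlapped and MT 1 alone lay high. A 3′ splice site 88 bp upstream of exon 6 had a mean level of 0.133 ± 0.047 in WT and 0.094 ± 0.025 in MT (SD, n = 3 each).

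ZDHHC6, which resides in the endoplasmic reticulum and is itself a substrate of ZDHHC16, showed no event with a difference above 0.016. Its largest was a pair of 3′ splice sites of exon 3, 12 bp apart, with levels of 0.923, 0.928 and 0.923 in WT, against 0.903, 0.953 and 0.966 in MT. The MT values lay on both sides of the WT values. In the sequence above, the downstream AG of ZDHHC6 is preceded by 55% C or T and the upstream one by 75%.

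ZDHHC17 and its relative ZDHHC13 carry ankyrin repeats and are known as huntingtin-interacting proteins. A ZDHHC17 exon of 110 bp that no annotated transcript uses for coding, in an intron of the representative transcript (chromosome 12, 76821058 to 76821167), had levels of 0.2, 0.303 and 0.361 in WT, against 0.128, 0.283 and 0.156 in MT. The means, 0.288 ± 0.082 and 0.189 ± 0.083 (SD, n = 3 each), differed by −0.099, about the spread between libraries, and the groups overlapped. Without WT 3 the difference was −0.063. The other 2 ZDHHC17 events named here were chosen after their values were seen, because their groups did not overlap. For a pair of 3′ sites of exon 7, 41 bp apart, the upstream site had levels of 0.8, 0.783 and 0.721 in WT, against 0.845, 0.858 and 0.843 in MT, a difference of 0.081. Its upstream site is the one of the representative transcript and is preceded by 100% C or T, the downstream site by 70%. The other was an exon of 55 bp at 0 in all WT libraries and at 0.014, 0.011 and 0.008 in MT, where the including form had 0.8 mean reads.

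In ZDHHC13, inclusion of exon 2 of 146 bp was 0.797, 0.813 and 0.76 in WT, against 0.927, 0.897 and 0.794 in MT. MT 3 lay within the WT range, and the difference of 0.083 was 0.046 with the authors' mean over all 6 listed MT values. The intron between exons 14 and 15 was retained at 0, 0 and 0.079 in WT, against 0.152, 0.043 and 0.032 in MT, at 25.4 reads on average.

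ZDHHC5, ZDHHC8 and ZDHHC20 act at the plasma membrane, where ZDHHC20 is known to palmitoylate the EGF receptor. ZDHHC20 has tandem 3′ splice sites 3 bp apart at exon 11, seen in the sequence above as adjacent AGs. Joined to the exon upstream at 52.2 reads on average, the longer form had levels of 0.624, 0.758 and 0.848 in WT, against 0.83, 0.791 and 0.805 in MT, so the MT values lay inside the WT range. The largest ZDHHC20 difference, −0.067, was that of exons 8 and 9 taken as a mutually exclusive pair, with levels of 0.365, 0.129 and 0.411 in WT, against 0.419, 0.118 and 0.167 in MT. Without MT 2 it was −0.009, without WT 3 −0.012 and without MT 1 −0.159. The spread within each group exceeded the difference, and as cassette exons both were included at a mean of at least 0.974 in either genotype. ZDHHC5 exon 3 had levels of 0.947, 0.935 and 0.895 in WT, against 0.914, 0.824 and 0.911 in MT, a difference of −0.043 with overlap. Without MT 2, which had the lowest level, the difference was −0.013. In another event, at 63.8 reads, the same exon had levels of 0.967, 1 and 1 in WT. In MT they were 1, 1 and 0.981, a difference of 0.005. ZDHHC8 had 1 event, exon 2, with levels of 1, 1 and 0.956 in WT, against 1, 0.979 and 0.99 in MT, a difference of 0.004 that was −0.01 without WT 3.

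The Golgi enzymes ZDHHC3 and ZDHHC7 are close relatives. In ZDHHC3 an exon of 98 bp had levels of 0.212, 0.167 and 0.158 in WT, against 0.067, 0.095 and 0.222 in MT on 12.8 reads, and the difference of −0.051 became 0.026 with the authors' mean over the 6 listed values. The same exon joined to another upstream end, at 131.3 reads, had a mean level of 0.019 ± 0.009 in WT and 0.018 ± 0.002 in MT (SD, n = 3 each). The 5 ZDHHC7 events differed by at most 0.01 in either direction. Its largest was exon 7 of 131 bp, included at 1 in every library but MT 3, at 0.969. In ZDHHC4, an intron of 91 bp ahead of the coding part was retained at 0.628, 0.752 and 1 in WT, against 0.732, 0.7 and 0.708 in MT. The difference of −0.08 became 0.023 without WT 3.

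**Figure D2:**
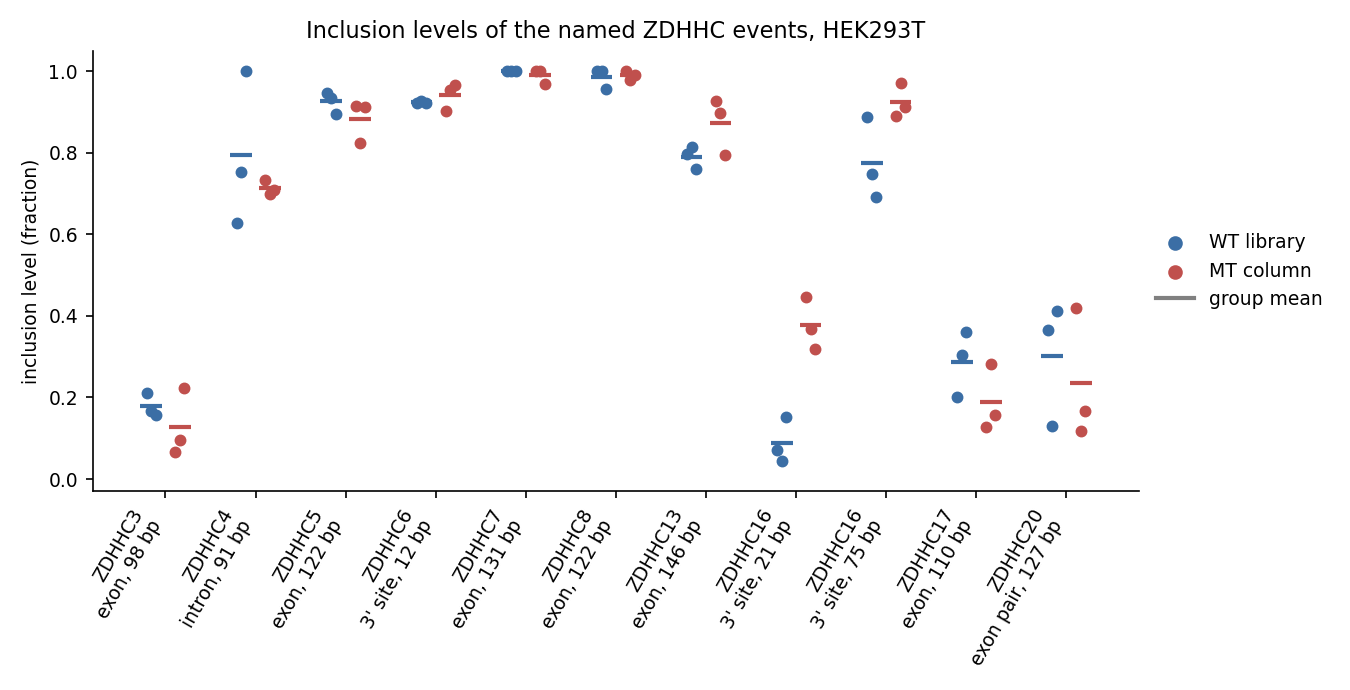
Inclusion level (vertical axis, fraction) of 11 events of the 10 genes (horizontal axis, with the kind of event and the length of the variable segment), with WT libraries in blue, MT columns in red and bars at the group means. The MT points lie above all WT points in the ZDHHC16 events of 21 and 75 bp, and the groups overlap in the other 9.

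Among the 85 events, 36 had a higher and 42 a lower mean level in MT, and 53 differed by at most 0.02. The median absolute difference was 0.0113, against 0.0107 over all 94005 events with a level in every library. Where the WT mean was between 0.1 and 0.9, in 24 events, it was 0.0442 against 0.0413. Groups did not overlap in 4 of the 78 ZDHHC events tested (5.13%) and in 5.46% of all events tested. All 4 were higher in MT, 2 in ZDHHC16 and 2 in ZDHHC17, the latter being those named for their lack of overlap. The direction of the events without overlap was not counted over all genes. With a difference above 0.1 required as well, 2 remained (2.56%), both in ZDHHC16, against 1.73% of all. These counts include events that share exons or sites, and the shares are near those of all events.

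By kind of event, the 61 cassette exons differed by −0.099 to 0.083, with a median of −0.001. Of the 9 alternative 3′ splice site events, 7 were higher in MT, with a median difference of 0.0653 against −0.0003 over all 5666 of that kind. Those 9 come from 5 genes, and 3 share the ZDHHC16 sites and 2 the ZDHHC20 sites. The 3 alternative 5′ splice site events were all lower in MT, by −0.036 to −0.004, the 9 mutually exclusive pairs differed by −0.067 to 0.014 and the 3 retained introns by −0.08 to 0.049. In 61 of the 85 events the variable segment, or the first exon of a pair, overlapped the coding part of the representative transcript, at least in part. In 17 it overlapped none of the exons of that transcript. Among the cassette exon events, 27.9% had a length that is a multiple of 3, against 39.1% over all genes. Among the alternative 3′ splice site events the share was 66.7%, against 46.4% over all genes. These are shares of events, and some events share an exon.

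**Figure D3:**
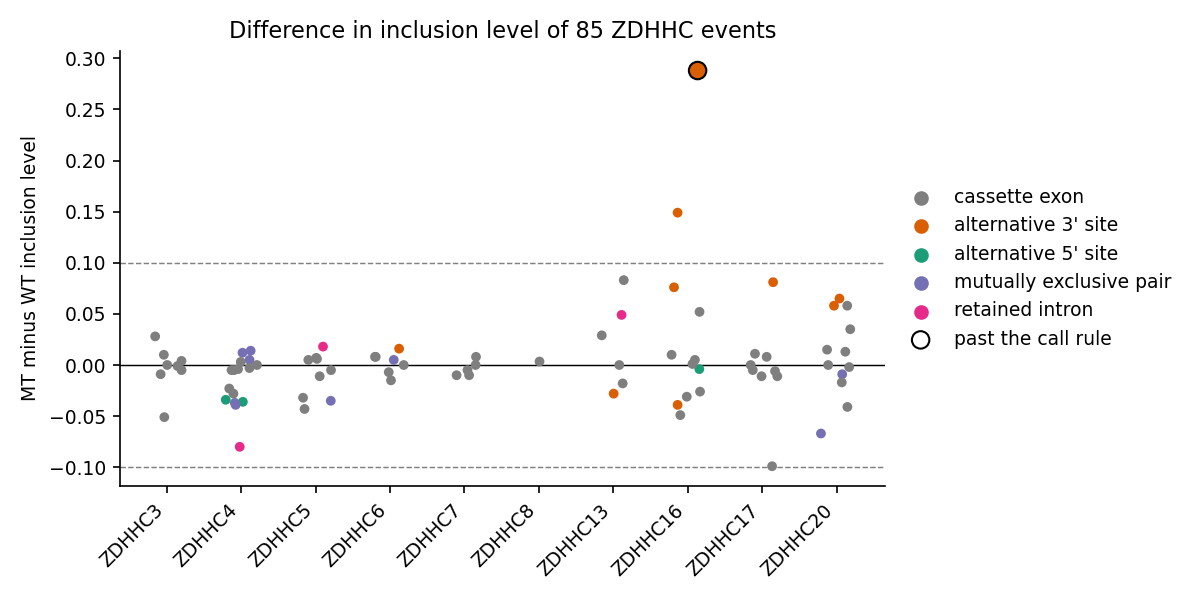
Difference in mean inclusion level, MT minus WT (vertical axis), of each of 85 events by gene (horizontal axis), coloured by kind of event, with dashed lines at differences of 0.1. ZDHHC16 holds both points above 0.1, at 0.288 and 0.149, and the ringed point is the 1 event past the threshold.

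The events most alike to the 21-bp ZDHHC16 event were sought among 5342 alternative 3′ splice site events of other genes, by the Euclidean distance between the levels in the 6 libraries. They were those of HLTF, a fork-remodelling helicase (distance 0.125), C2CD2L (0.131), DLST, a subunit of 2-oxoglutarate dehydrogenase (0.207), CAMTA2 (0.21) and DHDDS, an enzyme of dolichol synthesis (0.212). The HLTF event, with sites 12 bp apart, had levels of 0.127, 0.142 and 0.15 in WT, against 0.401, 0.397 and 0.319 in MT. At 136.8 reads on average, it was not past the threshold of the limma fit. Among these genes' events only that of DLST was. DLST, with sites 19 bp apart, had levels of 0.047, 0.069 and 0.059 in WT, against 0.293, 0.455 and 0.365 in MT. Variable segments of C2CD2L, CAMTA2 and DHDDS were 3, 15 and 23 bp long. All were selected for their likeness to the ZDHHC16 event, so their levels are a description.

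The other genes that add or remove acyl groups were listed by role, with 28 genes in all. Of these, 20 had 136 events with at least 10 reads, and 121 were tested. In the limma fit 0 of the 121 were past the threshold, 5 had an unadjusted p under 0.05, and with a logit transform 3 did. The first count is to be read against 0.0311% over all events, and the 5 events are 4.13% of those tested, against 4.47% over all events. The lowest adjusted p (limma, Benjamini-Hochberg) was 0.76, in ZDHHC9, which palmitoylates RAS proteins.

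Of 14 other ZDHHC enzymes, 7 had such events, and their 29 differences ran from −0.083 to 0.056. The lowest was an exon of ZDHHC21 of 112 bp, at 1 in all WT libraries and at 0.862, 1 and 0.889 in MT (limma adjusted p = 0.856). The partners of these enzymes, GOLGA7 and SELENOK, had 6 events with differences of −0.005 to 0.041. The widest, a 3′ splice site of GOLGA7, had levels of 1, 1 and 0.878 in WT and of 1 in all of MT (limma adjusted p = 0.856). Thioesterases, 9 genes with 82 events, differed by −0.159 to 0.105. An exon of LYPLAL1 was at 1 in WT, against 0.81, 1 and 0.714 in MT on 11.3 reads (limma adjusted p = 0.856). As a cassette exon in other events, at 65.4 and 52.9 reads, the same exon differed by −0.006 and 0. For HHAT and PORCN, which acylate Hedgehog and Wnt ligands, 19 events at a median of 18.2 reads differed by −0.159 to 0.122. Their widest was an exon pair of HHAT, with levels of 0.646, 0.426 and 0.32 in WT, against 0.158, 0.372 and 0.384 in MT (limma adjusted p = 0.856), and the groups overlapped.

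**Figure D4:**
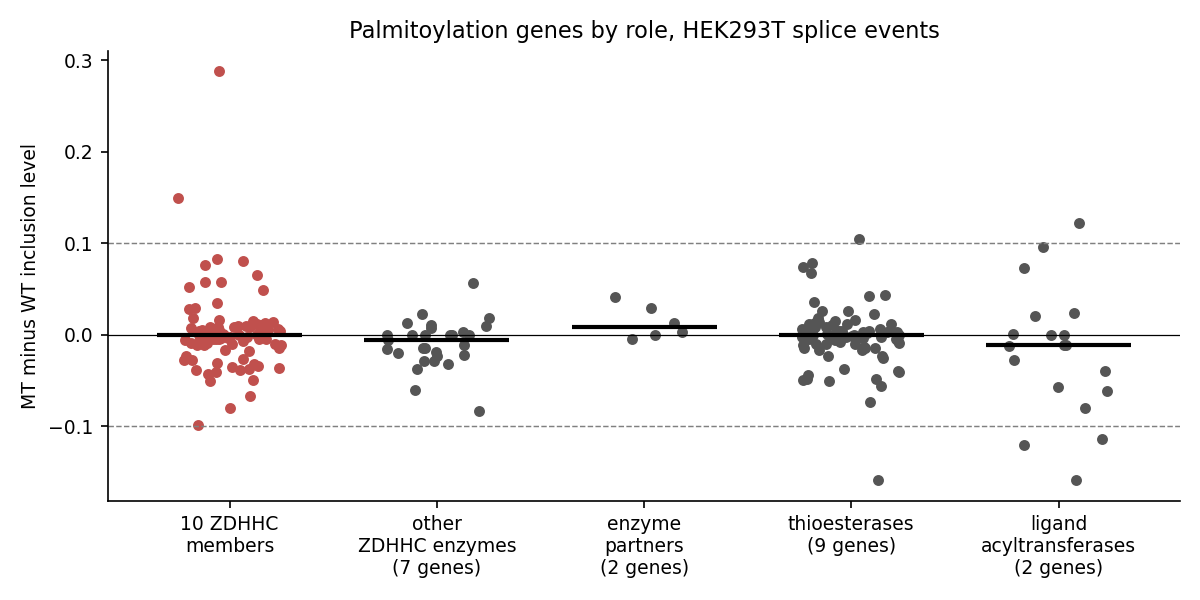
Difference in mean inclusion level, MT minus WT (vertical axis), of each event with at least 10 reads in the 10 ZDHHC genes (red) and in other palmitoylation genes by role (grey), with bars at the medians and dashed lines at differences of 0.1. The medians lie between −0.011 and 0.0083, and the point at 0.288 is that of ZDHHC16.

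R-loops, hybrids of RNA with DNA, had been mapped by DRIP-seq in another line, Nalm-6, a B cell leukemia, with 2 libraries each of SF3B1-WT and -MT cells from untreated and from RNH1-treated DNA. No peak lay within 1000 bp of the 21-bp ZDHHC16 segment in the 8 libraries, and none within 500 bp of the annotated start of any of the 10 genes. The share of all gene starts with a peak was not computed, so this is not a trait of the ZDHHC genes. The 10 gene bodies, 456070 bp together, held 17 and 19 peaks in untreated WT and 47 and 47 in untreated MT libraries. That is 0.0137% and 0.0145% of all peaks in WT and 0.0185% and 0.0158% in MT. The share that gene length alone would give was not computed, so these shares are not a trait of the genes. In RNH1-treated DNA the WT libraries had 2 and 9 peaks and the MT libraries 31 and 28. These were 0.00572% and 0.0116% of 34952 and 77550 peaks in WT. In MT they were 0.0154% and 0.0141% of 201804 and 198837 peaks. ZDHHC20 held 5 and 7 peaks in untreated WT and 11 and 14 in untreated MT libraries, and ZDHHC13 held 2 and 4 against 12 and 12. With RNH1 treatment, ZDHHC20 held 1 and 2 in WT and 11 and 5 in MT, and ZDHHC13 1 and 1 against 6 and 9. ZDHHC6 held 1 and 2 peaks in untreated WT and 1 and 1 in untreated MT libraries. ZDHHC4 and ZDHHC8 held 0 in every untreated library. In untreated DNA, ZDHHC16 held 1 and 0 peaks in WT libraries, as in those of MT. The MT lists were longer throughout, with 254170 and 296533 peaks in untreated MT against 123720 and 131096 in untreated WT libraries, and the part of this in the counts over the ZDHHC genes was not tested.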

How the data were processed

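The authors' deposited splice table gives the inclusion level of each event as a fraction, the junction reads of the including form per length of the form over those of both forms. It also holds group means of these reads. The submitters' processing notes name STAR, StringTie, BWA and GRCh38, and Methods name the rMATS model; versions are not given in the sources used here. Columns with the authors' own differences, p-values and significance marks were not used, nor were the 3 listed MT values without a column (the MT columns hold the values at positions 1, 2 and 6 of the list). The narrowPeak lists, called by the authors with MACS2 in each library, hold fold enrichment, a ratio over local background, which was not compared here.

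Libraries were grouped by their labels. The rMATS model needs reads matched to samples, so inclusion levels were compared after an arcsine square-root transform in limma 3.58.1 under R 4.3.3, with a variance trend on the log of mean reads and Benjamini-Hochberg adjustment over 83581 events, and the code was tested on simulated data. Leaving out 10424 events with 1 level in every library and a minimum of 10 reads preceded the fit. Named by rule were, per gene, the event with the largest absolute difference, every event with a difference above 0.1 and no overlap, and every event called. Further events described above fall outside this rule and were picked with the levels known. The members and gene lists were chosen with earlier results of these data known. Read totals of the libraries are not used here, so the mean reads of an event are the measure of its depth. Alternatives were another transform, other read minimums, no variance trend, constant events kept, a difference of 0.05, each library left out, group medians and, added after the data were seen, the authors' mean over 6 MT values. Sequences and transcripts are from GRCh38 and GENCODE 44, and the representative transcript is MANE Select.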

Additional observations from a re-analysis of the deposited data

How the results depend on the processing

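The ZDHHC16 call was kept with a minimum of 20 reads, with constant events kept and with a difference of 0.05. The count among ZDHHC events was 0 with the logit transform, with no read minimum, with no variance trend and with each library left out (0 to 0). In these runs 2 to 7 ZDHHC events had an unadjusted p under 0.05 (limma). Without WT 1 this was 7 of 75, against 2843 of 80435 over all events. With the logit transform it was 2 of 78, against 2908 of 83581. In the main fit it was 4 of 78, or 5.13%, against 4.47% over all events. Over all events, the logit transform and the fit with no variance trend gave 0 calls, with 2908 and 3200 events at an unadjusted p under 0.05, and leaving out a library gave 3 (without MT 1) to 13 (without MT 3). The 0 calls among the other palmitoylation genes held in every alternative run. The ZDHHC16 difference of 0.288 was 0.298 with medians. With the authors' mean over 6 MT values the ZDHHC3 difference was 0.026. With single libraries left out, differences ran from −0.159 to −0.009 for ZDHHC20, −0.146 to −0.063 for ZDHHC17, −0.098 to −0.021 for ZDHHC3, −0.058 to −0.013 for ZDHHC5, 0.055 to 0.122 for ZDHHC13, 0.003 to 0.035 for ZDHHC6, −0.163 to 0.023 for ZDHHC4, −0.016 to 0 for ZDHHC7 and −0.01 to 0.012 for ZDHHC8, so that ZDHHC4 and ZDHHC8 changed sign. No paired analysis was possible because the numbers of the MT columns could not be matched to the replicate numbers of the MT samples. Depth limits events near the minimum of 10 reads, where 1 read moves a level in coarse steps.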
